A study of Mus musculus with 6 samples.

Results

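Nuclei in the cell cycle were picked out of single-nucleus RNA sequencing of the mouse left ventricle by 5 genes, Mki67, Top2a, Knl1, Diaph3 and Cenpe. A nucleus was counted as cycling when it held at least 3 unique molecular identifiers (UMIs, each standing for 1 captured RNA molecule) summed over these genes, with at least 2 of the genes seen. Of 48438 nuclei that passed quality limits, 348 were cycling, which is 0.718%. Male mice of 12 weeks of age were studied in 3 groups, each with 2 libraries. WT-CD mice were wild-type littermates on a control diet. R403Q-CD mice ate that diet and carried 1 copy of the Myh6 mutation labelled Myh6+/R404Q (R403Q), which models hypertrophic cardiomyopathy. R403Q-EMPA mice had the mutation too, and their diet contained empagliflozin, an inhibitor of the sodium-glucose cotransporter SGLT2, at 0.15 mg per g of diet (about 15 mg per kg body weight) from 9 to 10 weeks of age. The labels also name 16 weeks of feeding, which an age of 12 weeks does not allow. The paper describes 2 weeks of treatment for cardiac RNA sequencing at 12 weeks of age, but does not state the length for the single-nucleus libraries. Empagliflozin was not given to wild-type mice, so the mutation and the drug were not crossed, and the strain was not given in the sources used here. Nothing in the labels says that the libraries came from separate animals, so p-values measure the spread between these libraries only.

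The cell cycle runs from G1 through DNA synthesis (S phase) and G2 to mitosis, and sets of genes are transcribed at each step. Genes for replication origins, DNA polymerases and nucleotide supply are induced at the start of S phase by E2F factors. Genes of the spindle, the kinetochore and the mitotic kinases rise later, in G2 and mitosis. In the adult heart most cardiomyocytes no longer divide, whereas endothelial cells and macrophages keep a capacity to proliferate. Of the genes in the rule, Mki67 encodes the Ki-67 protein that coats mitotic chromosomes, Top2a a topoisomerase that untangles DNA, Knl1 a scaffold of the kinetochore, Diaph3 a formin that builds actin filaments, and Cenpe a kinesin motor at the kinetochore.

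Late cell-cycle genes are known to share promoter elements, the CCAAT box bound by NF-Y and the TTTGAA element bound by the DREAM complex and MuvB-associated factors. The windows below run from 250 bases before to 50 after the annotated start, 5′ to 3′ on the strand of the gene, and capitals mark each CCAAT or TTTGAA on either strand (ATTGG and TTCAAA are the reverse complements). They come from the RefSeq table of build GRCm38.p6, whereas the count matrices use GRCm39, so the coordinates belong to the sequences only. Mki67 lies at chr7:135716330-135716629 (minus strand), Top2a at chr11:99024140-99024439 (minus), Knl1 at chr2:119046869-119047168 (plus) and Hmmr, the gene with the largest ratio between cycling and other endothelial-like nuclei, at chr11:40733388-40733687 (minus).
Mki67: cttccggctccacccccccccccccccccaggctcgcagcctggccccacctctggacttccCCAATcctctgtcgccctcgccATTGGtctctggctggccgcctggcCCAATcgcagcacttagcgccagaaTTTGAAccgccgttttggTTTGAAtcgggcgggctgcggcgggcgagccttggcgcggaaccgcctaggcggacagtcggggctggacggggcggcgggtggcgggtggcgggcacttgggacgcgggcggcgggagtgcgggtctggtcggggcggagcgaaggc
Top2a: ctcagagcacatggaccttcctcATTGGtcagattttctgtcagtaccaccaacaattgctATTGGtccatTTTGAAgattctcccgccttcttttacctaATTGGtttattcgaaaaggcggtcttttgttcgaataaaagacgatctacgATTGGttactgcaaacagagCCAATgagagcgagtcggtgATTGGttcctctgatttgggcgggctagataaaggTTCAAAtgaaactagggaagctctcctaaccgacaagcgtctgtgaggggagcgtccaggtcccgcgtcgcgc
Knl1: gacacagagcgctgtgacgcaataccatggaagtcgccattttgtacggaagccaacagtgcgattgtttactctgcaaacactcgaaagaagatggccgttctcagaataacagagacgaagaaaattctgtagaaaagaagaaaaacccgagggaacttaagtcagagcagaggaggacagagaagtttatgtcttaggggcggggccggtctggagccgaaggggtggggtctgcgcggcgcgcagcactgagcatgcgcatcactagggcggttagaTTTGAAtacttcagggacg
Hmmr: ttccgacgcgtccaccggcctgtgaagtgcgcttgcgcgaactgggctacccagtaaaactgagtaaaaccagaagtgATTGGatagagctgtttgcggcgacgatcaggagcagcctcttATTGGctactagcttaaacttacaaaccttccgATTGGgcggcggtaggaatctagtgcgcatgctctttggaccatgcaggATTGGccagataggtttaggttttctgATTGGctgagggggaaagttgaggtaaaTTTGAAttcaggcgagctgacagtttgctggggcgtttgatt
The Top2a window held 6 CCAAT and 2 TTTGAA matches, that of Mki67 3 and 2, that of Hmmr 5 and 1, and that of Knl1 0 and 1. The windows of Diaph3 and Cenpe, the other genes of the rule, are not shown. They held 3 and 1 CCAAT matches and 0 TTTGAA matches. Over 32851 windows of 27025 genes, 37.4% held a CCAAT and 17.9% a TTTGAA. The share with TTTGAA was 70.3% in 37 windows of 34 spindle and cytokinesis genes and 54.5% in 22 windows of mitotic kinase, cyclin and proteolysis genes, against 16.7% in 42 windows of 36 DNA replication genes. CCAAT was in 64.9%, 81.8% and 57.1% of the same windows. In 25 windows of kinetochore and centromere genes, TTTGAA was in 44% and CCAAT in 80%. In 14 windows of replication-dependent histone genes the shares were 57.1% and 92.9%, so high shares were not confined to the mitotic lists. A match is a description of the letters and not evidence of binding.

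The genes of the rule were concentrated in the nuclei they chose, which is how the nuclei were chosen and is given as a description. Mki67 (ENSMUSG00000031004) had 2259 of its 2526 UMIs, 89.4%, in the 348 cycling nuclei and was seen in 83.0% of them and in 0.476% of the others. Top2a (ENSMUSG00000020914) had 1704 of 1928 UMIs, 88.4%, in cycling nuclei, and Knl1 (ENSMUSG00000027326) 1062 of 1251, 84.9%. Diaph3 (ENSMUSG00000022021) and Cenpe (ENSMUSG00000045328) were less confined, with 65.1% and 49.5% of their UMIs in cycling nuclei. In CPM, the UMIs of a gene scaled to a fixed total of UMIs, Mki67 in cycling nuclei stood at 1295.4 and 504.6 in WT-CD libraries, 1217.7 and 705.3 in R403Q-CD libraries, and 1151.1 and 1682.6 in R403Q-EMPA libraries, so libraries of a group differed up to severalfold and the groups overlapped. The median cycling nucleus held 15 UMIs of the rule genes and the highest 130. Of the 348, 94 nuclei held all 5 genes, 108 held 4, 75 held 3 and 71 held 2. At the threshold, 28 nuclei had exactly 3 UMIs, with 882.7 CPM over the mitotic gene lists, and 31 nuclei just outside had 2 UMIs of 2 genes, with 952.6 CPM. A further 107 nuclei had 3 or more UMIs of 1 gene and were left out, 84 of them with Diaph3 alone. Among nuclei with 10 or more UMIs of the rule genes, 226 in number, the mitotic lists reached 14245.1 CPM, against 216.5 CPM in the 46446 nuclei with none.

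Kept nuclei per library ranged from 6754 to 10170, with medians of 2722.5 to 4119 UMIs and 31787308 to 45397128 UMIs in all per library. Cycling nuclei were deeper, with a median of 5370.5 UMIs and a range of 922 to 29926. No barcode was cycling in 2 libraries, and 4 cycling barcodes were also kept in another library. Predicted doublets made up 22 of the 348, 6.32%, against 5.02% of all kept nuclei. Since a deeper nucleus passes a count threshold more easily, shares are also given after each nucleus was thinned at random to 1500 UMIs and shallower nuclei were left out.

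Most cycling nuclei were endothelial-like or myeloid-like. Each nucleus was assigned to a lineage by the largest of 5 marker sums, and 179 of the 348 (51.4%) were endothelial-like (Flt1, Pecam1, Cdh5), 93 (26.7%) myeloid-like (Mrc1, F13a1, Adgre1), 33 fibroblast-like (Pdgfra, Dcn), 20 cardiomyocyte-like (Ttn, Ryr2, Myh6) and 17 pericyte-like (Rgs5, Pdgfrb), with 6 unassigned. Cycling endothelial-like nuclei had a median of 14 endothelial marker UMIs and 0 of the myeloid, fibroblast and pericyte markers, with 4 UMIs of the cardiomyocyte markers. Cycling myeloid-like nuclei had a median of 35 myeloid marker UMIs and 0 of the endothelial, fibroblast and pericyte markers, with 3 UMIs of the cardiomyocyte markers. The assignment has no class for lymphocytes. Among all nuclei, 35.2% were endothelial-like and 5.42% myeloid-like, so the myeloid-like nuclei made up a larger part of the cycling nuclei than of the whole.

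The myeloid-like nuclei had the highest share in the cycle in every library. After thinning, it was 0.980% and 2.16% in WT-CD libraries, 2.46% and 2.76% in R403Q-CD libraries, and 4.66% and 2.92% in R403Q-EMPA libraries. The endothelial-like share was 0.790% and 0.369% in WT-CD libraries, 1.06% and 0.330% in R403Q-CD libraries, and 1.26% and 0.991% in R403Q-EMPA libraries. The myeloid-like share was above the endothelial-like one in 6 of 6 libraries, by a mean of 1.86 percentage points, and the pooled values were 2.51% and 0.809%. The exact two-sided sign-flip test over the 6 libraries gave p = 0.0312, the smallest it can give, and p = 0.0521 after Benjamini-Hochberg adjustment over the 10 pairs of lineages, so that no pair passed 0.05 after adjustment. The endothelial-like share exceeded the fibroblast-like by 0.643 and the cardiomyocyte-like by 0.760 percentage points, and the myeloid-like exceeded the fibroblast-like, pericyte-like and cardiomyocyte-like by 2.5, 2.29 and 2.62, in each case in 6 of 6 libraries with the same exact p-values. Endothelial-like and pericyte-like nuclei were not separated (5 of 6 libraries, exact p = 0.0938, adjusted 0.117), and neither were the 3 lineages with the lowest shares from each other, with exact p of 0.188, 0.125 and 0.0625.

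**Figure D1:**
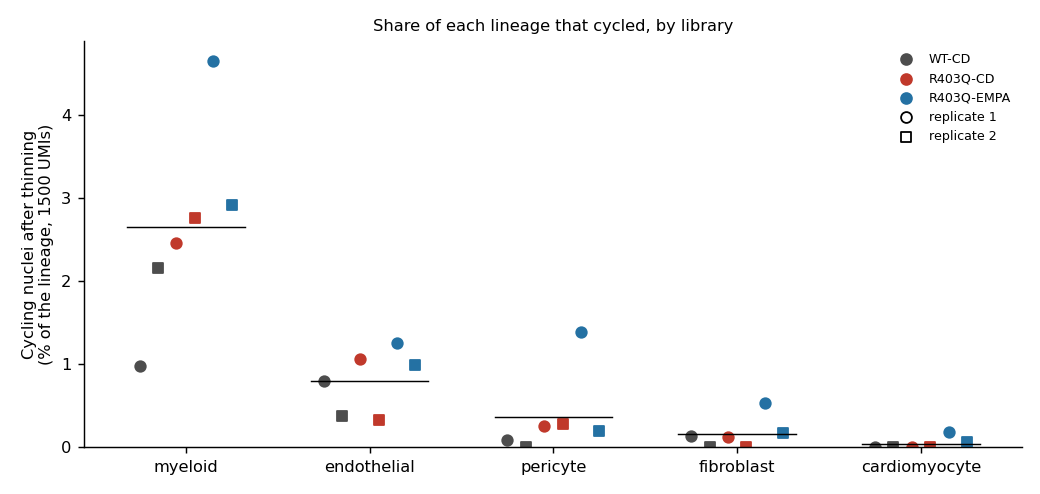
Share of each lineage that was cycling after thinning to 1500 UMIs (vertical axis, % of the lineage's nuclei), 1 point per library coloured by group, with a circle for replicate 1, a square for replicate 2 and a line at the mean of the 6 libraries. Myeloid-like nuclei stand highest in each library, from 0.980% to 4.66%, followed by endothelial-like nuclei in most, and cardiomyocyte-like nuclei are at 0 in 4 libraries.

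Cycling fibroblast-like, pericyte-like and cardiomyocyte-like nuclei were rare. After thinning, 20 of 14486 fibroblast-like nuclei (0.138%), 12 of 4701 pericyte-like (0.255%) and 4 of 7542 cardiomyocyte-like nuclei (0.0530%) were cycling. The zeros limit the share only to the value that 3 counts would give, which is 0.114% for fibroblast-like nuclei of WT-CD replicate 2 and 0.147% for those of R403Q-CD replicate 2, 0.308% for pericyte-like nuclei of WT-CD replicate 2, and 0.238% to 0.375% for cardiomyocyte-like nuclei of the WT-CD and R403Q-CD libraries. In R403Q-EMPA replicate 1 the pericyte-like share was 1.39% (6 of 432 nuclei) and the fibroblast-like share 0.529% (9 of 1702), the highest of the 6 libraries in both. The 20 cardiomyocyte-like nuclei that were cycling at full depth differed from other cardiomyocyte-like nuclei in more than the cycle. Of these, 10 (50%) were predicted doublets, against 8.87% of the others, and 10 held at least 5 UMIs of another lineage's markers, against 10.2%. Their median depth was 12257.5 UMIs against 8481. Neither sign was present in 9 of the 20.

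Cycling nuclei held more RNA molecules than other nuclei of their lineage. To compare depth without the advantage that depth gives at a count threshold, nuclei were called on the thinned counts and their full UMI counts were then set beside those of the others. In endothelial-like nuclei the medians of cycling and other nuclei were 3816 and 2645 in WT-CD replicate 1, 5008 and 3356 in replicate 2, 6310 and 2945.5 in R403Q-CD replicate 1, 6562 and 3711 in replicate 2, 4862 and 3213 in R403Q-EMPA replicate 1, and 4206 and 2386 in replicate 2. The cycling median was higher in 6 of 6 libraries, by 1.44 to 2.14 times. In myeloid-like nuclei it was higher in 6 of 6 by 1.01 to 1.83 times. The mean log2 ratios were 0.74 ± 0.22 and 0.49 ± 0.29 (SD, n = 6 libraries). The exact two-sided sign-flip test gave p = 0.0312 for each, the smallest possible. The comparison of depth was added after the data were seen, and these p-values were not adjusted. Without predicted doublets the mean ratios were 1.70 and 1.42, so they were as large as with them (1.67 and 1.40).

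The mean share of nuclei in the cycle was lowest in WT-CD. At full depth it was 0.492% (95% Wilson interval 0.373 to 0.648) and 0.424% (0.303 to 0.591) in WT-CD libraries, 0.806% (0.632 to 1.03) and 0.616% (0.461 to 0.823) in R403Q-CD libraries, and 1.44% (1.21 to 1.72) and 0.533% (0.385 to 0.737) in R403Q-EMPA libraries. These intervals cover counting error only. The number of nuclei behind them was 50 and 34, 64 and 45, and 119 and 36. Both R403Q-CD libraries were above both WT-CD libraries, whereas the R403Q-EMPA libraries lay on either side of the R403Q-CD libraries. The difference was 0.254 percentage points for R403Q-CD against WT-CD (exact two-sided permutation p = 0.333), 0.277 for R403Q-EMPA against R403Q-CD (exact p = 1) and 0.531 for R403Q-EMPA against WT-CD (exact p = 0.333). With 2 libraries against 2 the exact permutation test cannot go below 0.333, so no single-value comparison between groups could pass a threshold of 0.05.

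After thinning to 1500 UMIs the shares were 0.318% and 0.255% in WT-CD libraries, 0.595% and 0.298% in R403Q-CD libraries, and 1.05% and 0.508% in R403Q-EMPA libraries. R403Q-CD now overlapped the R403Q-EMPA range, with a difference of 0.335 between those groups (exact permutation p = 0.667), and its lower library stood between the WT-CD libraries (difference 0.160, exact p = 0.667). The R403Q-EMPA libraries were both above the WT-CD libraries, by 0.495 percentage points on average (exact p = 0.333). R403Q-EMPA replicate 1 alone held 119 of the 348 nuclei, and without it R403Q-EMPA was below R403Q-CD at full depth by 0.178 percentage points and above WT-CD by only 0.0754 (0.222 after thinning). Without R403Q-CD replicate 1, R403Q-CD was above WT-CD by 0.158 percentage points at full depth and 0.0119 after thinning. With no mitochondrial filter R403Q-EMPA also overlapped WT-CD at full depth (difference 0.345, exact permutation p = 0.667). When each library was given the lineage mix of all libraries together, the thinned shares were 0.377% and 0.269%, 0.567% and 0.289%, and 1.04% and 0.596%, and the R403Q-EMPA libraries then stood above the R403Q-CD libraries (difference 0.389) as well as above the WT-CD libraries (0.494, exact permutation p = 0.333 for both).

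**Figure D2:**
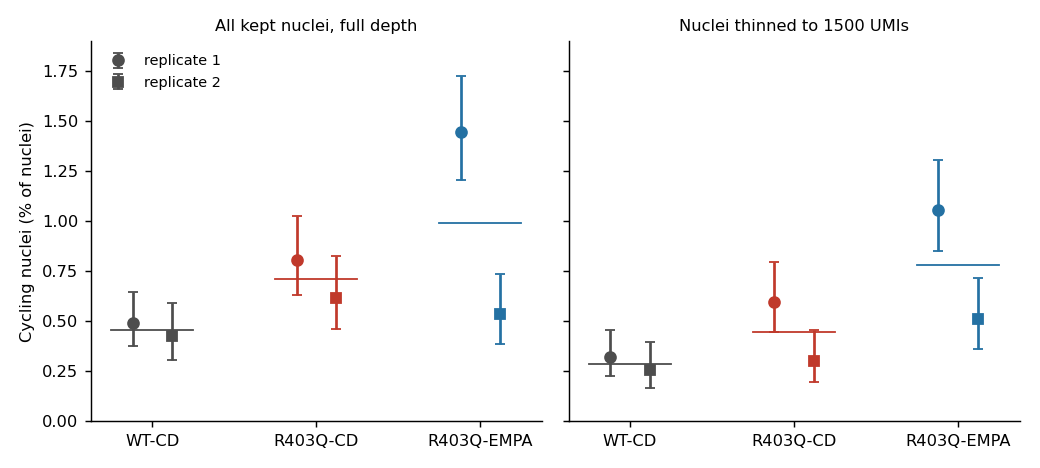
Cycling nuclei as a percentage of nuclei (vertical axis) in each library, at full depth (left) and after thinning to 1500 UMIs (right), with 95% Wilson intervals, a circle for replicate 1, a square for replicate 2 and a bar at the group mean. R403Q-EMPA replicate 1 stands highest in both panels, at 1.44% and 1.05%, and both WT-CD libraries stand below both R403Q-EMPA libraries.

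The myeloid-like nuclei followed the order WT-CD, R403Q-CD, R403Q-EMPA with no overlap between groups after thinning. The thinned means were 1.57% ± 0.835 in WT-CD libraries, 2.61% ± 0.213 in R403Q-CD libraries, and 3.79% ± 1.23 in R403Q-EMPA libraries (SD, n = 2), from 6 and 7, 11 and 10, and 19 and 8 cycling nuclei. Each of the 3 differences, 1.04, 1.18 and 2.22 percentage points, had an exact permutation p of 0.333. Without R403Q-EMPA replicate 1 the difference from R403Q-CD was 0.308. R403Q-EMPA overlapped R403Q-CD when predicted doublets were left out and, separately, when no mitochondrial filter was used (differences 1.09 and 1.04, exact permutation p = 0.667 for both). At full depth the order was also lost. The myeloid-like shares were then 1.75% and 4.44% in WT-CD libraries, 3.31% and 4.2% in R403Q-CD libraries, and 5.56% and 3.27% in R403Q-EMPA libraries, and all 3 pairs of groups overlapped. The endothelial-like share after thinning was higher in both R403Q-EMPA libraries than in both WT-CD libraries (difference 0.545 percentage points, exact permutation p = 0.333), and overlapped between R403Q-CD and either of the other groups.

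Among cycling nuclei, S-phase and mitotic genes were counted with lists that hold none of the rule genes. The S-phase lists were DNA replication, nucleotide supply and S-phase repair genes, and the mitotic lists were spindle and cytokinesis, kinetochore and centromere, and mitotic kinase, cyclin and proteolysis genes. Cycling nuclei held 7827.7 CPM of the S-phase lists and 10426.1 CPM of the mitotic lists, against 613.4 and 222.0 CPM in other nuclei. At least 1 mitotic UMI was present in 98.6% of cycling nuclei, and also in 50.6% of nuclei with 0 UMIs of the rule genes. More S-phase than mitotic UMIs were present in 191 nuclei and more mitotic than S-phase in 155, with 2 ties. The S-phase share of the 2 sums was 43.4% and 50.0% in WT-CD libraries, 41.3% and 55.1% in R403Q-CD libraries, and 40.1% and 32.8% in R403Q-EMPA libraries. Both R403Q-EMPA libraries lay below all 4 others, by 11.7 percentage points against R403Q-CD and 10.2 against WT-CD (exact permutation p = 0.333 for each), while R403Q-CD and WT-CD overlapped (difference 1.5, exact p = 1). Against R403Q-CD the difference was −4.84 without R403Q-CD replicate 2 and −18.6 without R403Q-CD replicate 1, and against WT-CD it was −6.55 without R403Q-EMPA replicate 2.

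In cycling myeloid-like nuclei the S-phase share was ordered WT-CD, R403Q-CD, R403Q-EMPA from high to low, with libraries of a group close together. The S-phase share was 66.1% and 59.3% in WT-CD libraries, 53.4% and 50.5% in R403Q-CD libraries, and 37.4% and 35.6% in R403Q-EMPA libraries. The means were 62.7% ± 4.78, 51.9% ± 2.01 and 36.5% ± 1.26 (SD, n = 2 libraries), and no pair of groups overlapped. The differences were −10.8 percentage points for R403Q-CD against WT-CD, −15.4 for R403Q-EMPA against R403Q-CD and −26.2 for R403Q-EMPA against WT-CD, each with the smallest exact permutation p of 0.333. The mitotic lists themselves stood at 4803.8 and 5216.8 CPM in WT-CD libraries, 8767.8 and 9737.7 in R403Q-CD libraries, and 12881.0 and 12588.9 in R403Q-EMPA libraries. The means of R403Q-EMPA and R403Q-CD were 2.54 and 1.85 times that of WT-CD. The S-phase lists covered a narrower range, at 9355.8 and 7603.7, 10027.0 and 9936.3, and 7703.6 and 6970.1 CPM. These values rest on 12 and 15, 16 and 16, and 24 and 10 nuclei. Nuclei with more mitotic than S-phase UMIs numbered 2 of 12 and 4 of 15 in WT-CD libraries, 4 of 16 and 5 of 16 in R403Q-CD libraries, and 11 of 24 and 7 of 10 in R403Q-EMPA libraries. The comparison within lineages was made after the data were seen. Without predicted doublets the 3 differences were −8.43, −16.3 and −24.8 percentage points, and the groups still did not overlap, but when Diaph3 was dropped from the rule R403Q-CD overlapped WT-CD (−5.46).

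Cycling endothelial-like nuclei did not show this order of S-phase shares. Their S-phase share was 39.6% and 49.9% in WT-CD libraries, 37.9% and 60.2% in R403Q-CD libraries, and 41.2% and 31.3% in R403Q-EMPA libraries. All pairs of groups overlapped, and the spread between the libraries of R403Q-CD (SD 15.8) was larger than any difference of means. Only 1 of 17 nuclei of R403Q-CD replicate 2 held more mitotic than S-phase UMIs, against 21 of 40 in replicate 1. Their mitotic lists stood at 14992.0 and 7816.3, 13004.6 and 7874.2, and 13468.6 and 17642.8 CPM. Here both R403Q-EMPA libraries were above both R403Q-CD libraries (1.49 times, exact permutation p = 0.333), as in myeloid-like nuclei, with overlap once predicted doublets were left out. Whether the order differed between the lineages was not tested.

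**Figure D3:**
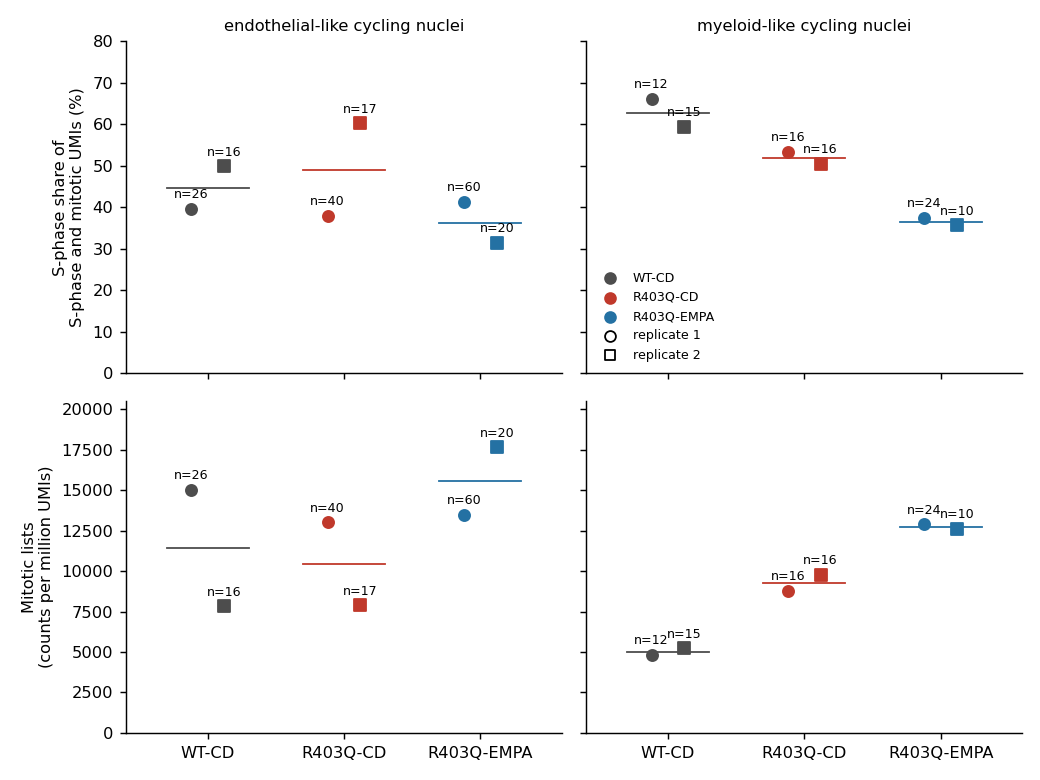
S-phase UMIs as a percentage of S-phase and mitotic UMIs (top, %) and level of the mitotic lists (bottom, CPM) in cycling endothelial-like (left) and myeloid-like (right) nuclei of each library, with the number of nuclei at each point, a circle for replicate 1, a square for replicate 2 and a bar at the group mean. In myeloid-like nuclei the S-phase share steps down from 66.1% and 59.3% in WT-CD to 37.4% and 35.6% in R403Q-EMPA, whereas the endothelial-like groups overlap.

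Beyond the rule genes, cycling nuclei were set beside other nuclei of the same lineage and library, as a description with no test because the nuclei were chosen on cycle genes. Of 7240 genes seen in at least 10% of cycling endothelial-like nuclei, 647 (8.94%) were at least 2-fold higher in cycling nuclei with the same direction in all 6 libraries, and 139 (1.92%) at least 2-fold lower. In myeloid-like nuclei the counts were 371 of 7132 (5.2%) and 62 (0.869%). For the cell-cycle lists the ratio of summed CPM was larger for mitosis than for replication. In endothelial-like nuclei, the ratio was 9.68 for the DNA replication list (39 of the 43 genes seen passed the 2-fold rule), 28.0 for S-phase repair (16 of 17), 59.4 for spindle and cytokinesis (34 of 37), 45.1 for kinetochore and centromere (23 of 24) and 41.6 for mitotic kinases, cyclins and proteolysis (25 genes). The myeloid-like ratios were lower, 6.47, 7.19, 19.7, 20.7 and 14.9.

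The largest endothelial-like ratio was that of Hmmr (ENSMUSG00000020330), a spindle-associated hyaluronan receptor. It stood at 227.4 and 71.9 CPM in cycling nuclei of WT-CD, 185.5 and 94.8 in those of R403Q-CD, and 130 and 171.2 in those of R403Q-EMPA, against 0.0725 CPM over all other endothelial-like nuclei, where 4 UMIs were found. It was seen in 32.4% of cycling and 0.0237% of other endothelial-like nuclei, a ratio of 2052.3. Other large ratios were those of Iqgap3, a scaffold protein (1630.6), the kinesin Kif18b (1424.5), the DNA glycosylase Neil3 (1124.6), the cohesin acetyltransferase Esco2 (871.5), the mitotic kinase Aurkb (832.2) and the checkpoint kinase Bub1 (605.5). Neil3 (ENSMUSG00000039396) led the myeloid-like nuclei with 405.9 CPM and a ratio of 702.6, was seen in 60.2% of cycling ones, and was the most widely seen of these leading genes in endothelial-like nuclei too, at 69.8% and 509.2 CPM. Esco2 (384.4), Hmmr (331.2), the spindle motor Kif11 (257.3), the checkpoint kinase Ttk (235.1) and the spindle pole gene Aspm (230.7) were among the next. Ratios over fewer than 10 UMIs in the other nuclei are imprecise.

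Replication genes had smaller ratios, and other nuclei also held them. Pola1, the catalytic subunit of DNA polymerase alpha, stood at 742.4 CPM in cycling and 82.9 in other endothelial-like nuclei, a ratio of 8.96, and at 932.7 and 163.1 CPM in myeloid-like nuclei. Mcm6 of the replicative helicase had ratios of 14 and 9.14 and Pole, of DNA polymerase epsilon, 53.6 and 24.0. Rrm2, which makes deoxynucleotides, had ratios of 127.7 and 79.8, and the repair gene Brca1 of 109.4 and 33.7. Among E2F factors, E2f1 had ratios of 29.4 and 5.38, E2f7 of 13.4 and 65.9 and E2f8 of 62.0 and 23.4.

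The D-type cyclins, which drive G1, were not uniformly higher in cycling nuclei. Ccnd3 was lower in cycling nuclei of 6 of 6 libraries, with a ratio of 0.441 in endothelial-like nuclei (140.5 against 318.9 CPM) and 0.245 in myeloid-like nuclei (268.5 against 1093.8). Ccnd2 was lower in 6 of 6 in endothelial-like nuclei (0.356) and in 4 of 6 in myeloid-like nuclei (0.660), while Ccnd1 was higher in 6 of 6 in both (1.44 and 2.23). Inhibitors of the cycle were present in cycling nuclei too. Cdkn1a, encoding p21, had ratios of 2.03 (5 of 6 libraries higher) and 3.47 (6 of 6), Cdkn2c, encoding p18, 21.5 and 10.2, and Cdkn1b, encoding p27, 1.11 and 1.24 with 3 of 6 libraries higher in each.

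Several summed lists of endothelial and macrophage states were lower in cycling nuclei, and few of their single genes passed the 2-fold rule. Of the genes seen, 3 of 5 endocardial, 2 of 10 capillary, 2 of 6 venous and 0 of 3 arterial genes were 2-fold lower in all 6 libraries of endothelial-like nuclei, and 1 of 12 resident macrophage genes in myeloid-like nuclei. In endothelial-like nuclei the endocardial list had a ratio of 0.400 and was lower in 6 of 6 libraries, at 1874.0 and 3779.7 CPM in WT-CD libraries, 1129.1 and 2679.3 in R403Q-CD libraries, and 1393.3 and 1221.1 in R403Q-EMPA libraries, against 5407.3 and 4673.9, 3676.3 and 4896.3, and 3145.9 and 5661.4 CPM in other endothelial-like nuclei. The arterial list had a ratio of 0.505 (lower in 6 of 6) and the capillary list of 0.768 (6 of 6). The venous list (0.488) and the lymphatic list (0.323) were lower in 5 of 6, and the angiogenic list was higher in 6 of 6 at a ratio of 1.14. Kit, a receptor tyrosine kinase of capillary endothelium, was higher in 6 of 6 (3.69), while Car4, a carbonic anhydrase of capillaries, Rgcc, Vwf and Nr2f2, the factor of venous identity, were lower in 6 of 6, with ratios of 0.329, 0.250, 0.222 and 0.292. In myeloid-like nuclei the resident macrophage list was lower in 6 of 6 (0.701), with F13a1 at 0.616, Lyve1 at 0.602 and Csf1r, the receptor for the macrophage growth factor, at 0.680, while the mannose receptor Mrc1 stood at 1.00. Because cycle genes take part of each nucleus's UMIs and the median of all genes was 0.10 higher on the log2 scale, ratios near 1 carry little weight.

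**Figure D4:**
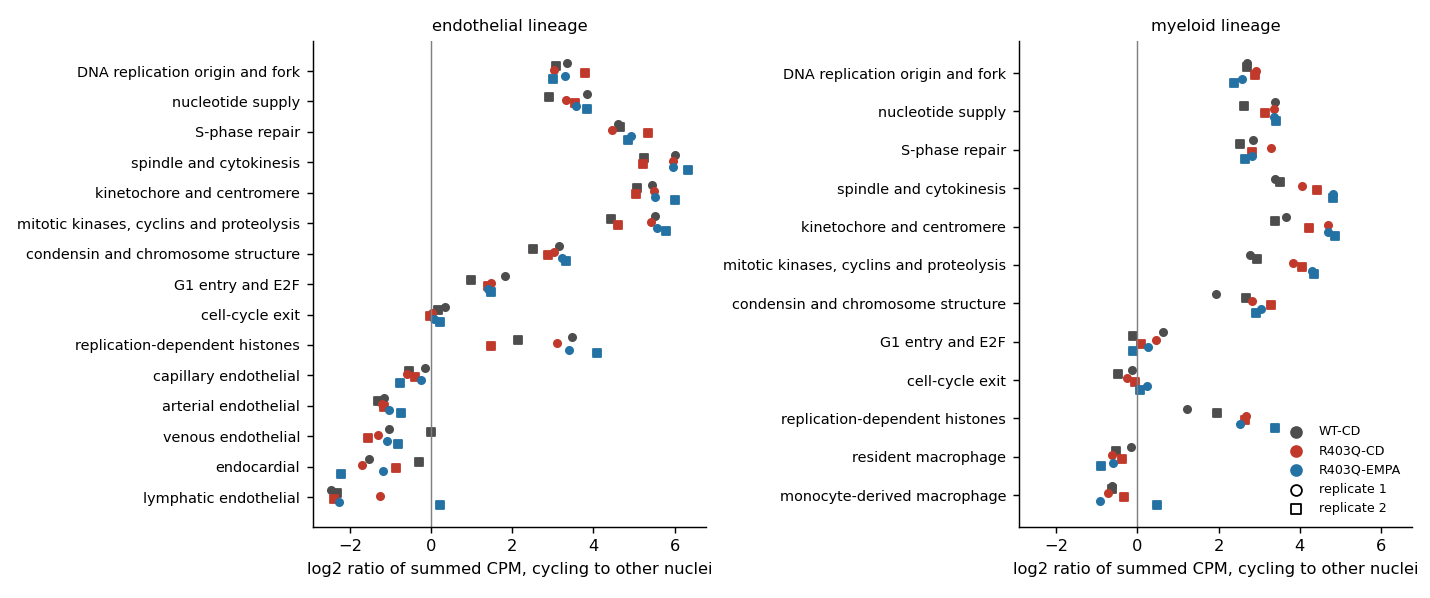
Log2 ratio of the summed CPM of each gene list in cycling to other nuclei of the same lineage (horizontal axis), 1 point per library coloured by group, for endothelial-like (left) and myeloid-like (right) nuclei, with a grey line at no difference. Spindle, kinetochore and mitotic lists lie farthest to the right, with pooled ratios of 59.4, 45.1 and 41.6 in endothelial-like nuclei, and the endocardial list lies to the left in all 6 libraries.

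The resident macrophage list in cycling myeloid-like nuclei was also ordered by group. It stood at 13500.9 and 12258.9 CPM in WT-CD libraries, 10027.0 and 11681.1 in R403Q-CD libraries, and 8762.4 and 8037.0 in R403Q-EMPA libraries, so that no pair of groups overlapped (exact permutation p = 0.333 for each). The mean of R403Q-EMPA was 0.652 times that of WT-CD. These values rest on 12 and 15, 16 and 16, and 24 and 10 nuclei. Mrc1 and F13a1 of this list are also markers that assigned nuclei to the myeloid-like class. In other myeloid-like nuclei the list stood at 15007.8 and 17592.2, 15425.1 and 15106.7, and 13393.5 and 15064.4 CPM. There R403Q-EMPA lay below R403Q-CD too, while WT-CD overlapped both other groups.

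Genes were then compared between groups over the summed counts of cycling nuclei, for each library. Of 6854 genes tested, edgeR's quasi-likelihood test with Benjamini-Hochberg adjustment called 0 (0%) in each of the 3 comparisons. At an unadjusted p under 0.05 there were 199 genes for R403Q-CD against WT-CD, 254 for R403Q-EMPA against R403Q-CD and 364 (5.31%) for R403Q-EMPA against WT-CD. DESeq2 called 0, 0 and 4. Simulated libraries of this size were drawn with a fixed spread between libraries that was not estimated from these sums. In them, 84.2% to 85.3% of genes changed 4-fold and 7.29% to 18.3% of those changed 2-fold were recovered. At that spread, changes of 2-fold were mostly missed, and recovery at the spread of the real libraries was not simulated. Tex11, with a log2 fold change of −5.77 for R403Q-CD against WT-CD, was not called (adjusted p = 0.256 by edgeR).

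The genes with the smallest p-values are given as values. Rbpj (ENSMUSG00000039191), the DNA-binding effector of Notch signalling, stood at 1291.0 and 1373.0 CPM in WT-CD libraries, 692.1 and 570.1 in R403Q-CD libraries, and 461.8 and 364.1 in R403Q-EMPA libraries. Its log2 fold change for R403Q-EMPA against WT-CD was −1.67 (SE 0.263, adjusted p = 0.441 by edgeR and 0.00407 by DESeq2). Of its UMIs in cycling nuclei, 86.4% were in myeloid-like nuclei, where it stood at 5055.6 and 2927.0, 2471.8 and 1483.6, and 1925.9 and 1019.4 CPM. In other myeloid-like nuclei Rbpj stood at 4653.9 and 6111.6, 3889.0 and 3498.9, and 4651.4 and 2352.9 CPM. Both WT-CD libraries were above all 4 others there too, and R403Q-CD and R403Q-EMPA overlapped. The share of myeloid-like nuclei among cycling nuclei was 24.0% and 44.1%, 25% and 35.6%, and 20.2% and 27.8%, and its part in the pooled value was not tested.

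Vwf, Chrm3 and Tex11 were the genes with the smallest p-values and lower values in R403Q-CD than in WT-CD. Vwf (ENSMUSG00000001930), encoding von Willebrand factor, stood at 154.4 and 208.2 CPM in WT-CD libraries, 31.1 and 32.6 in R403Q-CD libraries, and 47.1 and 26.0 in R403Q-EMPA libraries. Its log2 fold change was −2.50 (SE 0.401) for R403Q-CD against WT-CD, with an adjusted p of 0.306 by edgeR, and it was seen in 37 cycling nuclei in all. Chrm3 (ENSMUSG00000046159), the muscarinic M3 receptor, stood at 294.7 and 193.3, 33.9 and 48.9, and 58.8 and 39.0 CPM (log2 fold change −2.56, SE 0.382, adjusted p = 0.256 by edgeR for R403Q-CD against WT-CD) and rested on 25 nuclei. Tex11 (ENSMUSG00000009670) stood at 117 and 89.2, 2.83 and 0, and 8.82 and 6.50 CPM (log2 fold change −5.77, SE 0.852, adjusted p = 0.256 by edgeR for R403Q-CD against WT-CD), with UMIs in 11 nuclei only. Neither Chrm3 nor Tex11 rested on more than 9 nuclei in any library, so single nuclei carried much of each value.

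On the higher side for R403Q-EMPA against WT-CD, the smallest p-values were those of chaperone genes. Chordc1 (ENSMUSG00000001774), a co-chaperone of Hsp90, stood at 32.7 and 44.6 CPM in WT-CD libraries, 70.6 and 68.4 in R403Q-CD libraries, and 161.8 and 149.5 in R403Q-EMPA libraries, a log2 difference of 2.01 (SE 0.362) between R403Q-EMPA and WT-CD with an adjusted p of 0.441 by edgeR. Hsph1 (ENSMUSG00000029657), encoding the chaperone Hsp110, stood at 23.4 and 0, 42.4 and 35.8, and 144.1 and 234.1 CPM (log2 fold change 3.89, SE 0.717, adjusted p = 0.441 by edgeR). Myocd (ENSMUSG00000020542), a coactivator of smooth and cardiac muscle genes, stood at 56.1 and 44.6, 146.9 and 273.7, and 201.5 and 156.0 CPM, but 94.0% of its UMIs were in cardiomyocyte-like nuclei, and without predicted doublets its log2 fold change for R403Q-CD against WT-CD turned from 2.04 to −0.40. For R403Q-EMPA against R403Q-CD, Gm39816, Dlg2 and Cmah had the smallest p-values on the lower side (log2 fold changes −2.97, −1.90 and −2.39). On the higher side these were Piezo2, Kcnc2 and Endod1 (2.83, 1.5 and 2.10). Each had an adjusted p of 0.894 by edgeR. They were seen in 33, 60 and 68, and in 46, 65 and 63 cycling nuclei in all. Gm39816 had 98.1% of its UMIs in myeloid-like nuclei. It was seen in 3 nuclei of R403Q-CD replicate 2 and 1 of R403Q-EMPA replicate 2. Piezo2 was seen in 1 nucleus of R403Q-CD replicate 2.

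Over all nuclei of a library, the summed level of a cycle gene reflects how many nuclei were cycling as well as the level in each, and these cannot be told apart in the sums. Mki67 stood at 8.94 and 4.01 CPM in WT-CD libraries, 14.7 and 7.46 in R403Q-CD libraries, and 23.3 and 12.8 in R403Q-EMPA libraries. Top2a stood at 6.63 and 4.14, 10.3 and 5.76, and 17.8 and 9.58 CPM. Both R403Q-EMPA libraries were above both WT-CD libraries for all 5 rule genes, as they were for 22.7% of all genes tested, and R403Q-CD overlapped both groups for Mki67 and Top2a. For R403Q-EMPA against WT-CD the log2 fold change was 1.48 for Mki67 (SE 0.470, adjusted p = 0.125 by edgeR) and 1.36 for Top2a (SE 0.393, adjusted p = 0.101 by edgeR). Those of Knl1, Diaph3 and Cenpe were 1.07, 0.85 and 0.79, with adjusted p of 0.229, 0.227 and 0.166 by edgeR. DESeq2 called Mki67 (adjusted p = 0.00922) and Top2a (0.00733), among 1674 of 19233 genes that it called in this comparison. These genes chose the cycling nuclei, so their values are a description and not separate evidence on the shares above.

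The all-nuclei comparisons called 0 of 19233 genes (0%) for R403Q-CD against WT-CD, where 836 had an unadjusted p under 0.05 and DESeq2 called 65, 14 (0.0728%) for R403Q-EMPA against R403Q-CD and 863 (4.49%) for R403Q-EMPA against WT-CD. In the last of these, 4136 genes (21.5%) had an unadjusted p under 0.05. Spindle and cytokinesis genes were on the higher side in R403Q-EMPA against WT-CD for 37 of 37 members, with a median log2 fold change of 0.81 beside −0.0036 over all genes. Of the 37, 15 had an unadjusted p under 0.05 and 0 were called by edgeR. Mitotic kinases, cyclins and proteolysis genes had a median of 0.77 (25 of 29 positive, 7 higher and 2 lower at an unadjusted p under 0.05, 0 called by edgeR) and kinetochore genes of 0.53 (22 of 26 positive, 5 at an unadjusted p under 0.05, 0 called by edgeR). DNA replication genes had a median of −0.03, with 21 of 44 positive. The mitotic genes nearest to a call were Ccnf, a cyclin of the SCF ubiquitin ligase (log2 fold change 1.24, adjusted p = 0.0593 by edgeR), Ttk (1.80, 0.0681) and Ccna2, cyclin A2 (1.44, 0.0728). Against R403Q-CD the spindle list had a median of 0.48 for R403Q-EMPA (36 of 37 positive), and R403Q-CD against WT-CD a median of 0.27 (35 of 37), in comparisons that share libraries with each other. Markers of other cell types also differed in level between these groups, with 12 of 12 cardiomyocyte genes positive (median 0.72) and 8 of 8 pericyte genes negative (median −1.03) for R403Q-EMPA against WT-CD, and their part in these values was not tested.

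**Figure D5:**
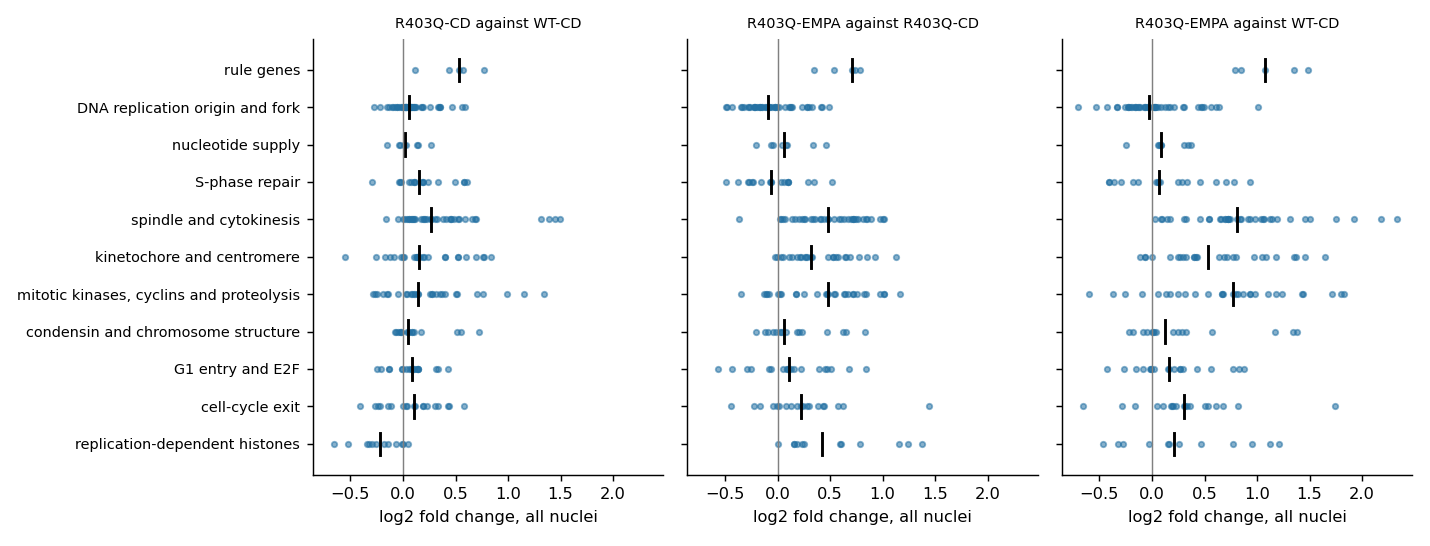
Log2 fold change over all nuclei (horizontal axis) of each gene of the rule and of the cell-cycle lists in the 3 comparisons, 1 point per gene with a bar at the list's median and a grey line at 0. In R403Q-EMPA against WT-CD the spindle, kinetochore and mitotic medians are 0.81, 0.53 and 0.77, and that of DNA replication genes is −0.03.

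Among 19 genes of cell-cycle exit, 1 was called for R403Q-EMPA against WT-CD over all nuclei, Cdkn1a (ENSMUSG00000023067). In that comparison 4.49% of all genes were called, so the count for the list was near the share of all genes. Over all nuclei it stood at 6.47 and 7.91 CPM in WT-CD libraries, 7.72 and 10.0 in R403Q-CD libraries, and 27.0 and 21.1 in R403Q-EMPA libraries, and it rose in R403Q-EMPA against WT-CD (log2 fold change 1.74, SE 0.205, adjusted p = 0.0107 by edgeR). Against R403Q-CD its log2 fold change was 1.44 (adjusted p = 0.0769 by edgeR). In cycling nuclei Cdkn1a stood at 43.5 and 26.3, 39.5 and 66.8, and 64.0 and 42.5 CPM, with overlap between groups, whereas in nuclei that were not cycling it stood at 6.72 and 7.64, 7.36 and 9.53, and 26.4 and 19.7 CPM. Nuclei outside the cycle held 1033 of its 1081 UMIs in R403Q-EMPA replicate 1 and 499 of 506 in replicate 2. Cycling nuclei were only 1.44% and 0.533% of the nuclei in these libraries. By CPM, Cdkn1a was higher in cycling than in other nuclei of every library.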

How the data were processed

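Left ventricular nuclei of 6 libraries were studied, 2 in each of the 3 groups. The authors isolated nuclei from frozen tissue, sequenced 10x Genomics 3′ libraries and deposited filtered matrices of raw UMI counts for 33696 genes, made, per the submitters' processing notes, with Cell Ranger 8.0.1 and GRCm39. Nuclei with at least 500 UMIs, 300 genes and at most 5% mitochondrial UMIs were kept (48438 of 69249 barcodes). Cycling nuclei and lineages were assigned by the rules given above, with cardiomyocyte markers counted only at 1.5% of UMIs or more. Doublets were predicted with scrublet in scanpy 1.11.5 (Python 3.11.15, numpy 2.4.6, scipy 1.17.1) and kept, except where stated. Depth was equalised by thinning to 1500 UMIs with a fixed seed. Counts were summed per library and fitted over all 3 groups with edgeR 4.0.16 (TMM, quasi-likelihood, R 4.3.3; CPM in these fits are TMM-scaled), with DESeq2 1.42.0 as an alternative, and the fit was tested on simulated data. Single values were compared by exact permutation of 2 libraries against 2 and by exact sign flips over 6 libraries. Fits within one lineage's cycling nuclei were not made, since some libraries held fewer than 20. Named genes were the 20 largest ratios between cycling and other nuclei, the 5 smallest p-values in each direction where none was called, and members of fixed lists. The members, lists and tests were chosen with earlier results of these data known. Replicates of a group differed by more than sampling noise (chi-square per degree of freedom 8.80 to 58.6). Replicate numbers follow accession order and pair no samples. Of 443 list genes, 443 were matched by symbol.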

Additional observations from a re-analysis of the deposited data

How the results depend on the processing

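No paired analysis was possible because the replicate numbers were given in accession order and name no shared animal, litter or batch. Of the comparisons between groups and lineages, 178 alternative values outside the library exclusions and 137 of those that left out 1 library were counted as unchanged. Of the others, 13 and 12 moved, 1 and 12 no longer passed the test, and 7 turned direction with 1 library left out. Single values compared between groups could not change their side of the threshold, since their exact permutation p cannot go below 0.333. Sign-flip tests over 5 libraries could not pass either, since they cannot go below 0.0625. For both kinds of test the tally therefore speaks to direction only. The tally also holds numbers of called genes, which have no direction. The lineage alternatives with other marker thresholds were run on unthinned counts. Directions that turned were the share of cycling nuclei in R403Q-EMPA against R403Q-CD (−0.178 without R403Q-EMPA replicate 1, range −0.178 to 0.733 percentage points), the endothelial-like share in R403Q-CD against WT-CD (−0.0926 without WT-CD replicate 2 and −0.249 without R403Q-CD replicate 1, range −0.249 to 0.485), the S-phase share in R403Q-CD against WT-CD (−1.84 without WT-CD replicate 1 and −5.37 without R403Q-CD replicate 2, range −5.37 to 8.37) and the same in endothelial-like nuclei (−0.801 and −6.84 without those libraries, range −6.84 to 15.5). In myeloid-like nuclei the S-phase share differences ranged from −14.2 to −7.38, −16.8 to −14.0 and −29.5 to −22.8 percentage points with 1 library left out. Over all nuclei, the log2 fold changes of Diaph3 and Knl1 turned to −0.16 and −0.15 in R403Q-CD against WT-CD without R403Q-CD replicate 1 (ranges −0.16 to 0.35 and −0.15 to 1.01), and to −0.013 and −0.15 in R403Q-EMPA against R403Q-CD without R403Q-EMPA replicate 1 (ranges −0.013 to 1.21 and −0.15 to 1.22). Myocd turned to −0.40 in cycling nuclei without predicted doublets. The log2 depth ratio ranged from 0.669 to 0.783 in endothelial-like and from 0.407 to 0.579 in myeloid-like nuclei, with p = 0.0625, the smallest possible over 5 libraries in the exact test, and at 3000 UMIs the myeloid-like value was 0.332 (exact p = 0.0625).

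Fits within the cycling nuclei of a single lineage, and their alternatives, were not run. In cycling nuclei the 3 comparisons gave 42, 38 and 75 calls with no filter on low counts, and R403Q-EMPA against WT-CD gave 4 with DESeq2 (Rbpj, Kirrel3, Fgf14, Hsph1). R403Q-CD against WT-CD gave 1 (Kcnd2) after thinning to at most 3000 UMIs and 0 to 1 with 1 library left out (Xirp2 without R403Q-CD replicate 1). Over all nuclei, DESeq2 called 65, 577 and 1674 genes and a fit with no filter 28, 345 and 1491. Without a mitochondrial limit the first and last comparisons gave 71 and 1429 calls. With 1 library left out the counts ranged from 0 to 1, 0 to 87 and 284 to 682, with 0 calls in R403Q-EMPA against R403Q-CD without R403Q-CD replicate 2 or R403Q-EMPA replicate 1, and 87 without R403Q-EMPA replicate 2. Causes of these different numbers of calls were not tested. In cycling nuclei the fit with no filter held 18482 genes, against 6854 in the main fit. Few cycling nuclei stood behind values within lineages, with 10 myeloid-like nuclei in 1 library and none that were fibroblast-like or pericyte-like in another.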

Other observations

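Heat-shock chaperones had higher values in R403Q-EMPA than in WT-CD in cycling nuclei and over all nuclei. Of 9 genes of the fixed heat-shock list, 5 could be tested in cycling nuclei, and for R403Q-EMPA against WT-CD their median log2 fold change was 1.69, with 5 of 5 at an unadjusted p under 0.05 (5.31% of all genes tested) and 0 called by edgeR. Over all nuclei the median was 1.86 and 8 of 9 were called by edgeR (4.49% of all genes). Hsph1 stood at 18.9 and 15.8 CPM in WT-CD libraries, 26.3 and 21.7 in R403Q-CD libraries, and 129.1 and 117.4 in R403Q-EMPA libraries over all nuclei (log2 fold change 2.83, adjusted p = 0.00310 by edgeR). Within cycling endothelial-like nuclei Hsp90aa1, encoding an inducible form of Hsp90, stood 3.26 times above other endothelial-like nuclei and was higher in 6 of 6 libraries.

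A few cycling nuclei outside the myeloid-like class carried lymphocyte genes, for which the lineage rule has no class. The 11 T-cell and B-cell genes used here were chosen after values were seen. In the myeloid-like class, 31.87% of all nuclei, cycling or not, held at least 5 UMIs of these genes. The share was 34.89% and 50% in WT-CD libraries, 39.05% and 36.75% in R403Q-CD libraries, and 10.42% and 17.97% in R403Q-EMPA libraries. Its part in the myeloid-like results above was not tested. Outside the myeloid-like class, 587 nuclei held at least 5 UMIs of these genes, and 12 of them (2.04%) were cycling. By the rule, 7 of the 12 had been assigned to the endothelial-like class, 2 to the fibroblast-like and 2 to the cardiomyocyte-like, and 1 to none. R403Q-CD replicate 1 held 6 of the 12, all of them among its 40 cycling endothelial-like nuclei.

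Barcodes removed by the mitochondrial limit also met the cycling rule, 11 and 1 of WT-CD, 10 and 9 of R403Q-CD, and 21 and 8 of R403Q-EMPA. Their shares of the removed barcodes were 0.384% and 0.0535%, 0.338% and 0.251%, and 0.485% and 0.185%, with overlap between all groups.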
